A study of Mus musculus with 7 samples.

Results

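The genes described here are 36 mouse genes of sugar breakdown and of the response to low oxygen, taken from the count tables by their Entrez gene IDs. All 36 were among the 23725 IDs of each table, with Ero1l listed under its newer symbol Ero1a in RefSeq. They comprised 17 glycolytic enzymes, 4 kinases that set the pace or the exit of glycolysis, 6 regulators of oxygen sensing and 9 targets of the hypoxia response. The cells were GFP-positive osteoblasts sorted from bone and lineage-depleted marrow of KP-Ocn-GFP mice, 2000 cells and 1 library per mouse. Every mouse was a C57BL/6 male carrying KrasLSL-G12D/WT and p53Flox/Flox, alleles that Cre recombinase switches on and removes, and GFP driven by Ocn, the osteocalcin gene active in mature osteoblasts. In 4 mice lung tumors were started with AdCre given through the trachea and tissue was taken 14 weeks later, when 3 mice were 31 weeks and 1 mouse (replicate 4) was 23 weeks old. The 3 tumor-free mice were 31 weeks (replicates 1 and 2) and 23 weeks old (replicate 3). The labels do not say whether tumor-free mice received a control virus. The comparison asks whether a distant lung tumor is accompanied by different gene expression in osteoblasts.

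Glycolysis converts glucose to pyruvate in the cytosol, and lactate dehydrogenase can then turn pyruvate into lactate. Bone-forming cells are known for a strong reliance on this route. When oxygen falls, prolyl hydroxylases (Egln1, Egln3) stop marking the alpha subunits Hif1a and Epas1 for removal by Vhl, and the stabilised subunits pair with Arnt and switch on their targets, many glycolytic enzymes among them. HIF alpha subunits are controlled mostly as proteins, so their transcripts do not report the activity of the pathway.

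Libraries counted transcript 3′ ends and were shallow, with 77127 to 169774 counts per library. A gene with no count in a library could still have had up to 3 counts by chance, which is 17.7 to 38.9 CPM (counts scaled to library depth). The summed osteoblast marker list was at 1135 to 1756 CPM in tumor-bearing and at 1531 to 2597 CPM in tumor-free libraries, and all 12 of its genes had counts. Of 8 endothelial markers 6 had 0 counts in every library (Pecam1, Kdr, Tek, Emcn, Flt1 and Vwf), and the list summed to 0 to 19.5 CPM. Among the leukocyte markers, Itgam (187 to 302 CPM) and Csf1r (77.8 to 178 CPM) had counts in every library, S100a8, Elane, Lyz2 and Cd79a were at 0 in all, and the list summed to 382 to 443 CPM. Summed markers of erythroid cells were at 168 to 411 CPM, of stromal cells and adipocytes at 603 to 988 CPM, and of chondrocytes at 617 to 1060 CPM except in tumor-bearing replicate 2 (2870 CPM). Lepr held 96.6% of the counts of the stromal and adipocyte list, where 2 of 6 genes were at 0 in all libraries. Sox9 held 70.9% of the counts of the chondrocyte list. The part of these cells in the results was not tested. The limit of 3 counts and the exact Clopper-Pearson interval given below cover counting error only. Intervals of fold changes also take in the spread between mice. In such bulk samples fewer cells of a type and less RNA per cell cannot be told apart.

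Few of the 36 genes were measured well. Together they held 1383 of 830673 counts, or 0.166% (95% exact Clopper-Pearson interval 0.158% to 0.176%), and the share was 0.150% to 0.196% in single libraries. Counts were concentrated: Gpi1 alone had 31.3% of them, and Gpi1, Pfkfb3, Hk2 and Pdk1 together 65.5%. In contrast 7 genes (Aldoc, Eno1, Ldhb, Pdk3, Egln3, Ankrd37 and Kdm3a) had 0 counts in all 7 libraries, which is 19.4% of the genes described against 43.8% of all genes. A filter on low counts, needed before testing, kept 6 of the 36 (Hk2, Gpi1, Pfkl, Pfkfb3, Pdk1 and Arnt), and the other 30 were too sparse to test.

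**Figure D1:**
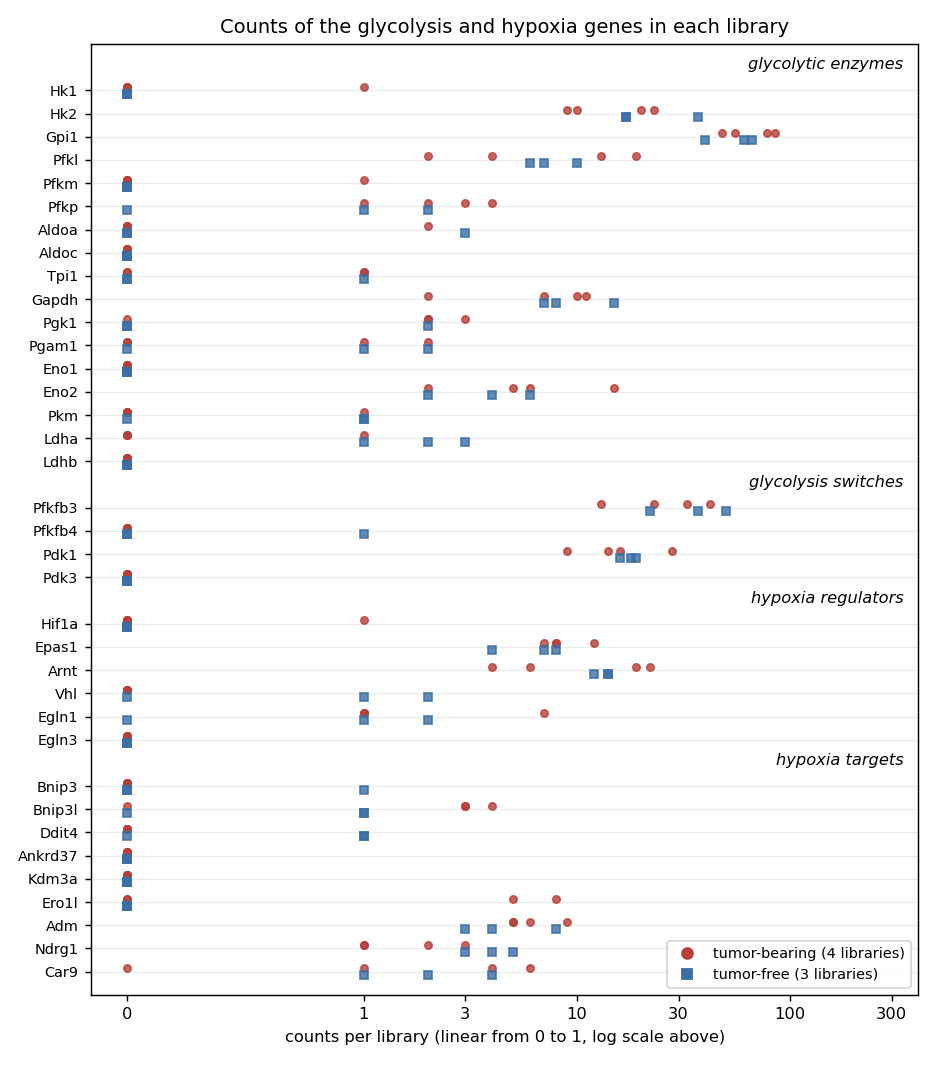
Counts of each of the 36 genes (rows, by class) in each library, with tumor-bearing libraries as circles and tumor-free libraries as squares. The horizontal axis is linear from 0 to 1 and logarithmic above; most genes sit at 0 to 3 counts, while Gpi1 reached 85 and Pfkfb3 reached 50.

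At the first steps of the pathway counts differed widely between sister genes. Hk2, which phosphorylates glucose, had 9 to 37 counts per library, and its sister Hk1 had 1 count in all. Gpi1, which converts glucose 6-phosphate to fructose 6-phosphate (chr7:34201327-34230336, mm10), had 40 to 85 counts and stood at percentile 97.7 of all genes by summed count. Of the phosphofructokinases, which commit sugar to glycolysis, the liver-type gene Pfkl had 2 to 19 counts, Pfkp 0 to 4 and the muscle-type gene Pfkm 1 count in all.

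Of the later enzymes Gapdh and Eno2 were counted in every library, and the others were near or at 0. Aldoa had 5 counts over the 7 libraries, Tpi1 3, Pgk1 9, Pgam1 6, Pkm 3 and Ldha 7. Gapdh, commonly used as an abundant reference transcript, had 60 counts in all, with 2, 11, 10 and 7 in tumor-bearing replicates 1 to 4 and 15, 8 and 7 in tumor-free replicates 1 to 3. Eno2, the neuronal enolase, had 40 counts while the widely expressed Eno1 had 0. Of the kinases, Pfkfb3, which makes the activator of phosphofructokinase, had 13 to 50 counts and Pfkfb4 1 in all. Pdk1, which inhibits pyruvate dehydrogenase and keeps pyruvate out of mitochondria, had 9 to 28 counts per library and Pdk3 had none.

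Among oxygen sensors, Arnt had 4 to 22 counts per library and Epas1, which encodes HIF-2 alpha, 4 to 12. Hif1a had 1 count in all 7 libraries, Vhl 3 and Egln1 13. Of the 9 targets, Adm, which encodes the peptide adrenomedullin, had 40 counts, Ndrg1 19, the carbonic anhydrase gene Car9 18, the oxidase gene Ero1l 13, the mitophagy receptor gene Bnip3l 12, Ddit4 2 and Bnip3 1. No target had enough counts to be tested. Per kilobase of the longest coding transcript the 6 genes tested ranked Gpi1 (150.1 counts per kilobase over 7 libraries), Pfkfb3 (45.8), Hk2 (24.1), Pdk1 (23.1), Arnt and last Pfkl (16.4), although a 3′ end count need not scale with length.

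The genes with most counts shared a property of sequence. Their longest coding transcripts in GENCODE M21 were searched for runs of 25 bases that 50 or more genes hold in a transcript, in either orientation. Such a run, leaving out those made almost wholly of 2 kinds of base, lay in 5 of the 6 genes tested and in 4 of the 30 others (Gapdh, Eno2, Epas1 and Car9). The most shared runs of Pfkfb3, Arnt and Epas1 are themselves simple repeats, which this rule did not leave out. With the low-complexity runs of 2 kinds of base included, 6 of 6 and 5 of 30 genes held a run. Hk2 had 19 such low-complexity runs and Adm 21. By summed count, all 10 genes with at least 40 counts had a shared run of either sort and 1 of the 26 below (Car9) did; this split at 40 was chosen after the values were seen. All coding genes of the tables showed the same contrast, with a shared run of either sort in 80.4% of 2202 genes tested and 19.7% of 17776 not tested. Tested genes had longer transcripts (median 4121 against 2689 bases), but among transcripts of 1500 to 3000 bases the shares were still 75.7% and 14.4%. These are descriptions across genes with no test, and whether counts of such genes include reads from other transcripts was not tested.

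The most widely shared run is shown for 5 genes: Gpi1, Pfkl and Pdk1, which were tested, and Eno2 and Car9, which were not. Car9, with 18 counts, is the gene below the split at 40. Within 2 pairs, Gpi1 with Pfkl and Eno2 with Car9, the runs are related, and the Pdk1 run stands by itself. All lie in 3′ untranslated regions, and capitals mark the shared bases, here the whole run. The Gpi1 run (chr7:34201611-34201635, minus strand, 281 bases before the transcript end) and the Pfkl run (chr10:77987721-77987745, minus strand) each occurred in transcripts of 942 genes, and each is the reverse complement of the other over all 25 bases. The Eno2 run (chr6:124760138-124760162, minus strand) occurred in 1223 genes, the Car9 run (chr4:43513308-43513332, plus strand) in 906 and the Pdk1 run (chr2:71902412-71902436, plus strand) in 627. The Eno2 and Car9 runs overlap by 15 bases. Before the transcript end lay 774 bases for the Pfkl run, 83 for Eno2, 397 for Car9 and 1422 for Pdk1. The most shared runs of Pfkfb3 and Arnt, not shown, lay 1454 and 1307 bases before it.
Gpi1: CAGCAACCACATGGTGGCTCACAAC
Pfkl: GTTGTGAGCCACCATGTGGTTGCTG
Eno2: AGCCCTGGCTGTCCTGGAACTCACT
Car9: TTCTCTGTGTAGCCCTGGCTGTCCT
Pdk1: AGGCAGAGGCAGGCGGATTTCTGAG

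**Figure D2:**
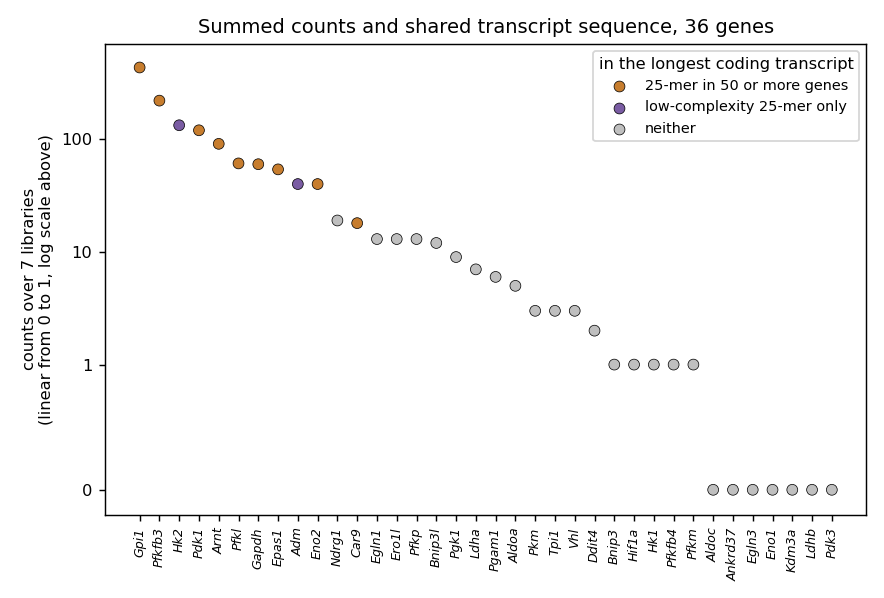
Counts summed over 7 libraries for each of the 36 genes, ordered from highest to lowest, on an axis that is linear from 0 to 1 and logarithmic above. Colour shows whether the longest coding transcript holds a 25-base run found in at least 50 genes, a low-complexity run only, or neither; all 10 genes with at least 40 counts are coloured, and below them only Car9 is.

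Sharing with near-identical copies is a separate matter and bears on several low values. In the last 500 bases of the Gapdh transcript 96.2% of 25-base runs also occurred in other genes, 313 of them pseudogenes, so its counts are uncertain. For Eno1 the share was 87.2%, and its near-identical copy Eno1b had 0 to 4 counts per library. The ends of Pfkp, Bnip3, Ndrg1, Tpi1 and Ankrd37 overlap exons of Pitrm1, Gm45507, Gm17035, Spsb2 and Ufsp2, in that order, on the opposite strand. Whether strand was used in counting is not stated in the labels, so reads of such pairs cannot be told apart. Hk1, Pgam1, Pkm, Ldha, Hif1a and Vhl shared no run in their last 500 bases with another gene and still had 1 to 7 counts in all. Pfkfb3, Pdk1, Arnt, Pfkl and Epas1 shared none there either and had 220, 120, 91, 61 and 54 counts. For Gpi1, with the most counts, the share was 28.2%.

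Hypoxia-inducible factors bind a core of ACGTG or GCGTG. RefSeq start sites (GRCm38.p6) were found for 33 of the 36 genes. Either motif was searched on both strands in the 250 bases before the start, with overlapping matches counted separately. A match lay before 37 of 48 starts (77.1%) against 38.6% of 32851 starts of all genes. Close starts of a gene, as in Aldoa and Eno1, can hold the same match. Counted by gene, 29 of 33 had a match, against 11226 of 27025 of all genes. Both motifs contain CG, and base composition was not taken into account. All 7 genes with 0 counts had a match at a start, so the letters were present in genes with and without counts. A match of 5 letters is no evidence of binding. The stretches shown are of a pair of genes with enough counts to test (Hk2, and Pfkfb3 at the start with 3 matches) and of a pair near 0 (Ldha at the start with 5 matches, and Bnip3), read 5′ to 3′ on the gene's strand and ending just before the start, with matches in capitals. They are chr6:82774455-82774704 (minus strand) for Hk2, chr2:11502091-11502340 (minus) for Pfkfb3, chr7:46845554-46845803 (plus) for Ldha and chr7:138909507-138909756 (minus) for Bnip3. Where matches on both strands overlap they appear as 1 longer run of capitals, as at both palindromes before Ldha.
Hk2: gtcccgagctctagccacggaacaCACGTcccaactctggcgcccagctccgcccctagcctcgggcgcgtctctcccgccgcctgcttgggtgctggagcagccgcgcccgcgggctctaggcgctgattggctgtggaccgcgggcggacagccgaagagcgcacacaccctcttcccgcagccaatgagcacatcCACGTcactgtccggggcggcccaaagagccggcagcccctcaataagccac
Pfkfb3: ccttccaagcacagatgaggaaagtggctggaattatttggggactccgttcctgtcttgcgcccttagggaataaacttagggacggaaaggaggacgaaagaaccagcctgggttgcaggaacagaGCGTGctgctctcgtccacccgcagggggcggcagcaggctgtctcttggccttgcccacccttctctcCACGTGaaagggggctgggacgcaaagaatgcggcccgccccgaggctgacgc
Ldha: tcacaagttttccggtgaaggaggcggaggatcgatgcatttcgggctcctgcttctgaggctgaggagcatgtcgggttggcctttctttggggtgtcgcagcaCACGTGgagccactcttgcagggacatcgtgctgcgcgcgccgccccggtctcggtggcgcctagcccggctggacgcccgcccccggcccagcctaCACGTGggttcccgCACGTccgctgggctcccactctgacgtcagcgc
Bnip3: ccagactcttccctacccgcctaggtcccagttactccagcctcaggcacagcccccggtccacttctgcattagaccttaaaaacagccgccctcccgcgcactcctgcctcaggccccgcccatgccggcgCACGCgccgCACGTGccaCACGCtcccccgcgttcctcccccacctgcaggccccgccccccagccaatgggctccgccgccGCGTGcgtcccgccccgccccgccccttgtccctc

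None of the 6 genes tested was called different with a tumor. The test (edgeR, quasi-likelihood, age as a second factor, Benjamini-Hochberg over 2495 genes) called 0 of the 6, against 0% of all genes tested (adjusted p = 0.990 for each of the 6; at an unadjusted p under 0.05 there were 0 of the 6 and 67 of all genes, 2.69%). DESeq2 also called 0 genes, with 13 higher and 36 lower at an unadjusted p under 0.05, and limma voom called 0, with 62 higher and 53 lower. Log2 fold changes, tumor-bearing over tumor-free, were above 0 for 2 and below 0 for 4 of the genes, with a median of -0.20 against 0.04 for all genes tested. Of the 2 above 0, Pfkl had a mean CPM that was slightly lower with a tumor, so its sign is not settled. For the glycolytic enzymes tested the median was 0.14 over 3 genes, which is the value of Pfkl itself, and for the kinases -0.32 over 2. Among the 95% intervals of these 6 genes the lowest limit was -1.28 (Hk2) and the highest 1.36 (Pfkl), and each interval took in 0. Those of Gpi1 (-0.30 to 0.75) and Pdk1 (-0.79 to 0.40) were narrower. Such limits do not give the size of change that the test could detect. Whether the difference itself varied with age was tested as an interaction, which called 0 of 2495 genes (edgeR, lowest adjusted p = 0.495), with 3 residual degrees of freedom.

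Hk2 came nearest to a difference. It had 123, 105, 129 and 136 CPM in tumor-bearing replicates 1 to 4 and 165, 144 and 298 CPM in tumor-free replicates 1 to 3. Each tumor-bearing library lay below each tumor-free one, within the 31-week mice as well as between the 2 mice of 23 weeks, while tumor-free replicate 3 stood far above the rest. Groups without overlap were seen for 1 of the 6 genes and for 3.53% of all genes tested. The means were 124 ± 13.4 (SD, n = 4) and 203 ± 83.4 CPM (SD, n = 3), with a log2 fold change of -0.62 (SE 0.28, 95% interval -1.28 to 0.03; edgeR adjusted p = 0.990). Without tumor-free replicate 3 it was -0.35, and without tumor-bearing replicate 4 -0.41. A list of 10 genes induced by tissue digestion summed to 233 to 294 CPM with a tumor. In tumor-free replicates 1 to 3 the sum was 438, 280 and 427 CPM. Its member Fos had 40 counts in tumor-free replicate 3 and 0 to 18 elsewhere. The part of digestion in the Hk2 values was not tested.

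Pfkfb3 lay on the same side with overlapping groups. Tumor-bearing replicates 1 to 4 had 178, 242, 236 and 225 CPM and tumor-free replicates 1 to 3 had 214, 314 and 403 CPM. Again tumor-free replicate 3 was highest, and tumor-free replicate 1 lay among the tumor-bearing libraries. Means were 220.3 ± 28.8 (SD, n = 4) and 310.3 ± 94.5 CPM (SD, n = 3), and the log2 fold change of -0.44 (SE 0.27, edgeR adjusted p = 0.990) was -0.25 without tumor-free replicate 3.

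Gpi1, the most precisely measured of these genes, lay slightly on the higher side. Its values were 658, 578, 478 and 532 CPM in tumor-bearing replicates 1 to 4 and 389, 518 and 532 CPM in tumor-free replicates 1 to 3. The groups overlapped, and both 23-week mice had the same level. The means were 562 ± 76.5 (SD, n = 4) and 479.6 ± 78.7 CPM (SD, n = 3). The log2 fold change was 0.22 (SE 0.23, 95% interval -0.30 to 0.75; edgeR adjusted p = 0.990), and it was 0.09 without tumor-free replicate 1 and 0.11 without tumor-bearing replicate 1.

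Pdk1 varied least, with a coefficient of variation of 13.1% over the 7 libraries. It had 123, 147, 157 and 109 CPM with a tumor and 156, 153 and 153 CPM without, and the highest value belonged to a tumor-bearing mouse. The group means were 134 ± 21.9 (SD, n = 4) and 154 ± 1.56 CPM (SD, n = 3). Its log2 fold change was -0.20 (SE 0.26, 95% interval -0.79 to 0.40), and -0.08 to -0.34 with single libraries left out.

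Pfkl and Arnt split the tumor-bearing mice. Pfkl had 27.4, 42.0, 107 and 88.7 CPM in tumor-bearing replicates 1 to 4 and 97.3, 59.4 and 48.4 CPM in tumor-free replicates 1 to 3, with means of 66.2 ± 37.6 (SD, n = 4) and 68.4 ± 25.7 CPM (SD, n = 3). The fold change fitted with age was 0.14 on the log2 scale (SE 0.53), against the order of the means, and turned to -0.17 without tumor-free replicate 3 and to -0.20 in 31-week mice alone. Arnt, the shared partner of both HIF alpha subunits, had 54.9, 63.1, 124 and 130 CPM against 136, 102 and 113 CPM. Its means were 92.8 ± 39.3 (SD, n = 4) and 117 ± 17.5 CPM (SD, n = 3), with a log2 fold change of -0.21 (SE 0.37), which was -0.01 when tumor-free replicate 1 was left out, -0.51 or -0.48 when tumor-bearing replicate 3 or 4 was. For both genes tumor-bearing replicates 1 and 2, the shallowest libraries of the 7, were lowest. The part of depth in these values was not tested.

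**Figure D3:**
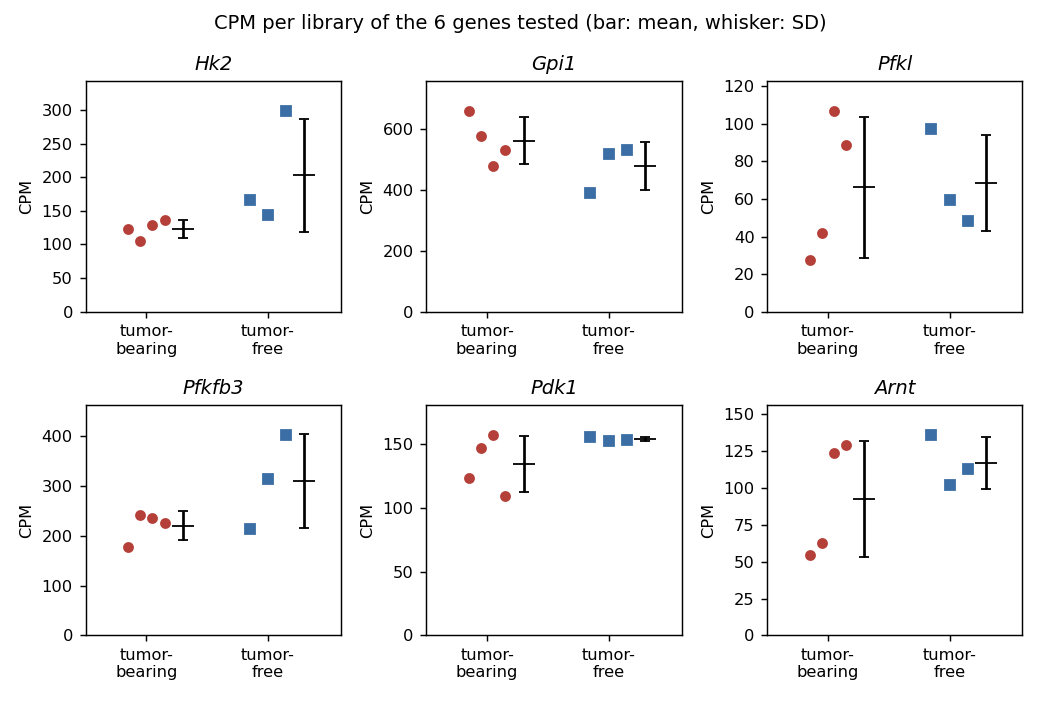
CPM of the 6 genes tested in each library (circles, 4 tumor-bearing; squares, 3 tumor-free), with the mean as a bar and the SD as a whisker, each panel starting at 0. The Hk2 points of the groups do not overlap and those of the other 5 genes do; tumor-free replicate 3 is the top point for Hk2 (298 CPM) and Pfkfb3 (403 CPM).

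Of the genes too sparse to test, the 4 with most counts were spread over both groups. Epas1 had 96.0, 84.1, 44.9 and 81.9 CPM with a tumor and 77.8, 34.0 and 56.4 CPM without, a log2 fold change of 0.44 (SE 0.50) in a fit with no filter. In that fit Gapdh had -0.51 (SE 0.49), Eno2 0.65 (SE 0.61) and Adm 0.28 (SE 0.58), none called (edgeR, lowest adjusted p of these 4 = 0.795, with 0% of 13344 genes called).

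The groups of 2 sparse genes did not overlap, Ldha and Ndrg1, against 3.35% of the 13344 genes with a count. Ldha, which makes lactate from pyruvate, had 0, 0, 0 and 1 counts in tumor-bearing replicates 1 to 4 and 1, 2 and 3 counts in tumor-free replicates 1 to 3. Ndrg1, a target induced by low oxygen, had 1, 1, 3 and 2 counts with a tumor and 4, 5 and 3 counts without, or 13.7 ± 2.59 CPM (SD, n = 4) against 35.2 ± 9.69 CPM (SD, n = 3). Neither passed with no filter (edgeR adjusted p = 0.795 for each). At such counts a difference of 1 or 2 molecules or reads decides the order of libraries.

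The counts of 2 other sparse genes came mostly from 1 or 2 tumor-bearing libraries. Egln1, the main oxygen-sensing hydroxylase, had 7 of its 13 counts in tumor-bearing replicate 1 and 0 to 2 in every other library. Ero1l, which forms disulphide bonds in the endoplasmic reticulum, had 8 counts in tumor-bearing replicate 1, 5 in tumor-bearing replicate 3 and 0 in the other 5 libraries, with no call (edgeR with no filter, adjusted p = 0.795).

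Sums over all members of a class take in the sparse genes. That of the glycolytic enzymes was close between the groups, and the other class sums were less so. The 17 glycolytic enzymes had 923 ± 34.2 CPM with a tumor (SD, n = 4) and 932 ± 95.9 CPM without (SD, n = 3), a log2 ratio of -0.01. This sum rests largely on Gpi1: without it the values were 362 ± 55.7 and 452 ± 64.1 CPM, a log2 ratio of -0.32. The kinases summed to 302 to 393 CPM with a tumor and 370 to 564 CPM without (log2 ratio -0.40). The 15 hypoxia regulators and targets had 344 ± 88.9 against 306 ± 72.7 CPM (log2 ratio 0.17), with the highest sum in tumor-bearing replicate 1 (466 CPM), and the ratio was -0.01 when that library was left out and 0.38 without tumor-free replicate 1. In every class the ranges of the groups overlapped.

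**Figure D4:**
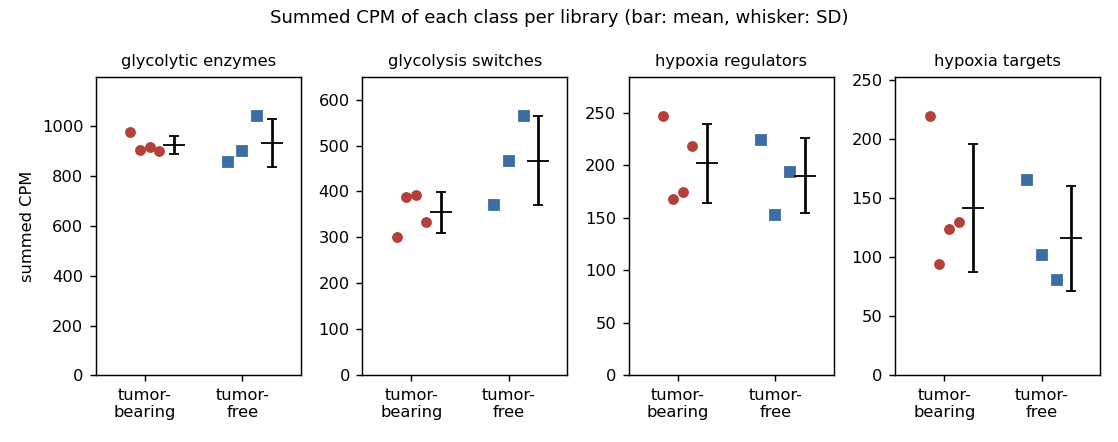
Summed CPM of each class in each library (circles, 4 tumor-bearing; squares, 3 tumor-free), with the mean as a bar and the SD as a whisker, each panel on its own scale from 0. Group ranges overlap in all 4 classes; the kinases of glycolysis span 302 to 393 CPM with a tumor and 370 to 564 CPM without.

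Other genes of these pathways were taken from lists written with earlier results of these data known. Of 35 further genes of glucose handling and pyruvate entry, 12 had 0 counts in all libraries, 2 could be tested and none was called. They were Pdp2, the phosphatase that reverses the action of Pdk1 on pyruvate dehydrogenase, with 493 ± 104 against 787 ± 424 CPM (log2 fold change -0.63, SE 0.37), and Pfkfb2, a relative of Pfkfb3, with -0.05 (SE 0.27). The glucose transporter genes Slc2a1 and Slc2a3 had at most 1 count in a library. Of 16 further genes of oxygen sensing only Rbx1, a subunit of the ubiquitin ligase that contains Vhl, could be tested (0.09, SE 0.26).

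Of 44 further hypoxia targets, 15 had 0 counts in all libraries and 5 could be tested, 4 above and 1 below 0, with a median of 0.04, as for all genes tested. P4ha1, a collagen prolyl hydroxylase, had 218 ± 134 against 319 ± 213 CPM (-0.79, SE 0.53), with 66 counts in tumor-free replicate 2 and 10 to 34 in the others. Mxi1, an antagonist of Myc (0.25, SE 0.29), Loxl2, a collagen cross-linking oxidase (0.12, SE 0.21), and Zfp395 (0.04, SE 0.27) lay close to 0. Vegfa, the angiogenic factor that is the best known target, had 10 to 18 counts per library and a log2 fold change of 0.02 (SE 0.34); it was named after its values were seen. None of these genes was called (edgeR adjusted p of 0.990 or higher).

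**Figure D5:**
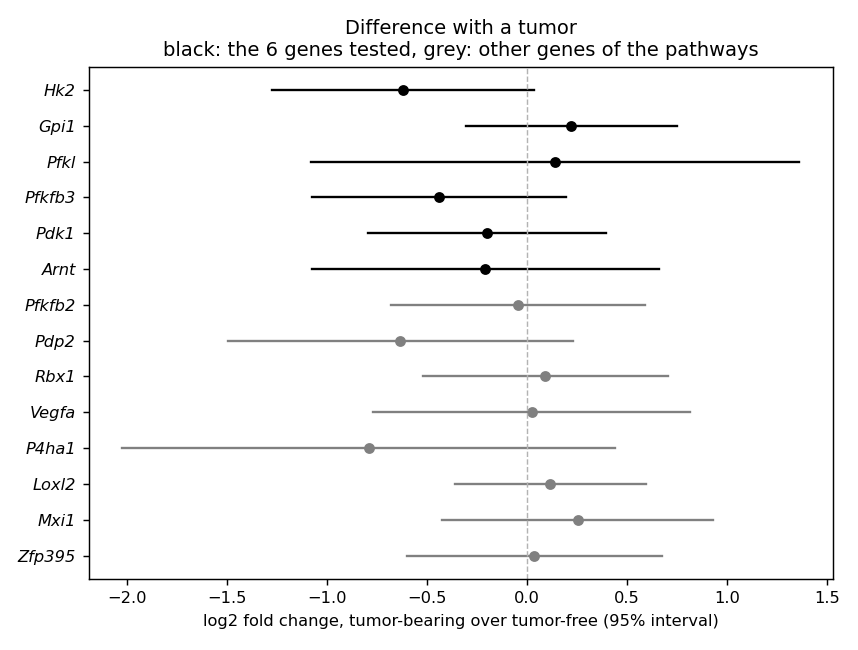
Log2 fold change, tumor-bearing over tumor-free, with its 95% interval from edgeR, for the 6 genes tested (black) and the other tested genes of glucose handling, oxygen sensing and hypoxia targets (grey). Every interval includes 0; that of Hk2 runs from -1.28 to 0.03.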

How the data were processed

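Osteoblasts of 7 mice were profiled with 3′ end libraries made by a custom CEL-Seq protocol with unique molecular identifiers, per the labels' protocols. TopHat2 2.0.10, SAMtools and the mm10 build appear in the submitters' processing notes. The counting program, annotation, use of strand and any collapsing of identifiers were not given in the sources used here. Values as deposited are raw whole-number counts per Entrez gene ID, not normalized. RefSeq (GRCm38.p6) named 23666 of 23725 IDs.

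Genes were filtered with filterByExpr (minimum count 10, minimum total 15), which kept 2495 genes. They were scaled by TMM (factors 0.945 to 1.05) and tested with edgeR 4.0.16 (glmQLFit, robust, and glmQLFTest; age as a factor; prior count 0.125; R 4.3.3), with Benjamini-Hochberg adjustment at 0.05. CPM use TMM-scaled totals. The procedure was tested on simulated counts. Alternatives were DESeq2 1.42.0, limma voom (limma 3.58.1), other scalings and filters, no age term, 31-week mice only, a replicate block and each library left out. The members and lists were chosen with earlier results of these data known. All 36 members were accounted for; of the other lists only genes tested were to be named, up to 4 each by smallest p; Vegfa, Slc2a1, Slc2a3 and the markers of other cell types were named outside this rule, after their values were seen.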

Additional observations from a re-analysis of the deposited data

Results flagged for a closer look

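Among the 4 tumor-bearing libraries, 1 library stood apart for 7 of the genes, by a gap beyond Dixon's 95% critical value. For Egln1 it was replicate 1, with 96.0 CPM against 10.5 CPM in the next library. The other 6 genes had 0 counts in the remaining 3 libraries and 1 or 2 counts in the library that stood apart: Hk1 (5.62 CPM), Aldoa (11.2 CPM) and Pkm (5.62 CPM) in replicate 3, Pfkm (10.5 CPM) and Hif1a (10.5 CPM) in replicate 2, and Ldha (6.82 CPM) in replicate 4. For normally distributed values a gap of this size arises in about 5% of groups by chance. It arises in any group with counts in a single library, as for these 6 genes. The share of all genes with such a gap is not given here, so the 7 cannot be set against it.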

How the results depend on the processing

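No setting called a gene: edgeR gave 0 calls under each alternative run with it, including no low count filter and each library left out, and DESeq2 and limma voom, run once each on all 7 libraries with the main filter, gave 0. The signs of Hk2, Gpi1, Pfkfb3, Pdk1 and Arnt were the same in every fit that could test them. Pfkl turned to -0.20 in 31-week mice only and lay between -0.17 and 0.50 with single libraries left out. The median of the glycolytic enzymes tested, 0.14 over 3 genes, was -0.29 over 4 genes in 31-week mice only and -0.31 over 2 genes with the replicate number as a block, and lay between -0.38 and 0.15 with single libraries left out. The filter then kept other genes. For the hypoxia genes the median was the value of 1 gene, Arnt (-0.21). With single libraries left out it lay between -0.51 and 0.38, the 0.38 over 2 genes without tumor-free replicate 1. With no low count filter it was 0.25 over 12 genes, and the stricter filter kept none of them. Deviations of same-numbered mice correlated at -0.20, -0.12 and -0.12, so the numbers were not taken to pair the mice; the block fit, over 6 libraries without age, left 0 genes called.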

Other observations

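Genes of oxidative phosphorylation, the route that glycolysis bypasses when oxygen is short, were counted unevenly. Of 30 listed, 7 had 0 counts in all libraries, and Cycs, which encodes cytochrome c, held 76.7% of the list's counts, while Gpi1 held 55.9% of those of the 17 glycolytic enzymes. Cycs had 696 ± 141 CPM with a tumor (SD, n = 4) and 615 ± 145 CPM without (SD, n = 3), a log2 fold change of 0.17 (SE 0.26). Ndufa2, a subunit of complex I and the only other tested gene of the list, had 0.72 (SE 0.66), with 1 to 28 counts in tumor-bearing and 3 to 12 in tumor-free libraries. Neither passed edgeR's quasi-likelihood test (adjusted p = 0.990 for each).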
